A study of Mus musculus with 12 samples.

Results

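The 45 genes described here code for parts of the TGF-β, activin, and BMP pathway, and they were chosen by name out of the 30705 gene names measured, as a list of names rather than by a threshold on their values, with earlier results of these data known. They comprise 9 ligands, 10 receptors, 6 secreted antagonists, 4 latent TGF-β binding proteins, 7 SMADs, 3 nuclear corepressors, and 6 target genes. TGF-β, activin, and BMP ligands bind pairs of type I and type II receptor kinases, which phosphorylate receptor SMADs. These join SMAD4 and enter the nucleus, where inhibitory SMADs and ID genes are among the transcripts they switch on. In melanoma, cells of the melanocyte lineage both secrete and respond to these ligands, and the pathway is known for its control of matrix deposition and of cell state.

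RNA-seq was performed on cultured murine Braf V600E melanoma cells, with 3 samples each of scramble control cells and of 3 lines in which CRISPR/Cas9 was used to knock out (KO) ptgs1 (COX-1), ptgs2 (COX-2), or ptges (mPGES-1). COX-1 and COX-2 make the prostaglandin precursor that mPGES-1 turns into PGE2, and the lines were compared to learn how loss of each enzyme changes the tumor cells. The 4 groups share the parental line, derived from 1 C57BL/6 mouse with the genotype Braf+/LSL-V600E, Tyr::CreERT2+/o, p16INK4a-/-, in which the tyrosinase promoter drives an inducible Cre. The KO cells were selected with puromycin and subcloned by limiting dilution. The study describes the 3 samples of a line as independent samples in its Results and as RNA of different subclones in a legend. The labels give only replicate numbers, so that p-values measure the spread between these samples, whichever they are. Values are RPKM, that is, reads scaled to transcript length and to the size of the library, and the estimated depth was 13.5 to 17 M reads per sample.

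The targeted genes were measured first as a check of the labels. The level of Ptgs1 was 142, 164, and 149 RPKM in scramble cells, 16.9, 16.8, and 14.3 in ptgs1-KO cells, 158, 169, and 146 in ptgs2-KO cells, and 173, 138, and 146 in ptges-KO cells. For Ptgs2 it was 749, 777, and 759 RPKM in scramble cells, 624, 668, and 502 in ptgs1-KO cells, 78.5, 84.6, and 76.1 in ptgs2-KO cells, and 807, 715, and 739.7 in ptges-KO cells. For Ptges it was 78, 75, and 79.8 RPKM in scramble cells, 56.9, 55, and 51.5 in ptgs1-KO cells, 69.2, 69.4, and 63.4 in ptgs2-KO cells, and 41, 35.6, and 34.8 in ptges-KO cells. Each targeted mRNA was lowest in the line named for it, with no overlap with scramble cells, and none was absent. Ptges was also lower in ptgs1-KO cells (log2 fold change -0.50, standard error 0.08, limma adjusted p = 0.0011), and so was Ptgs2 (-0.36, limma adjusted p = 0.0386).

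Of 16 melanocyte lineage markers, only Pax3 and Mitf had a mean of at least 1 RPKM, and 8 were listed at 0 in all samples, among them Sox10, Mlana, Tyrp1, and Dct. The labelled cell type is therefore met by few of its usual markers. Of 8 fibroblast markers, 2 had a mean of at least 1 RPKM, the most abundant being Pdgfrb with 10.4 RPKM, and Dcn and Lum were listed at 0 throughout. The summed fibroblast list was 17.5 to 24.0 RPKM in scramble, 24.0 to 35.4 in ptgs1-KO, 9.79 to 11.5 in ptgs2-KO, and 9.58 to 13.1 in ptges-KO cells. Its level thus moved with the lines as several of the pathway genes below did, and its part in those results was not tested. All 5 endothelial markers had means under 0.1 RPKM, no keratinocyte or epithelial marker of 6 reached a mean of 1 RPKM (the highest was Krt8, at 0.741), and of 6 immune markers 2 did, Cd14 being highest at 6.89 RPKM while Ptprc, the pan-leukocyte marker, ran from 0 to 0.13 RPKM, with means of 0.02 in scramble, 0.01 in ptgs1-KO, 0.0833 in ptgs2-KO, and 0.08 in ptges-KO cells. In ptgs1-KO replicate 3 a single transcript, AK155692, took 8.24% of the summed values, more than any single gene did in the other libraries.

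Of the 45 genes, 39 reached a mean of 1 RPKM over the 12 samples and were tested. Values were compared on log2(RPKM + 1) with limma, and a gene was called where its p, adjusted by the Benjamini-Hochberg method over 11282 genes, was under 0.05. Across the 4 lines, 26 of the 39 differed, or 66.7%, against 38.6% of all genes tested. The largest differences were in secreted factors, led by the activin antagonist Fstl3, the BMP antagonist Grem1, and the ligand Bmp6 (Fstl3 passed the filter through its level in ptgs2-KO cells alone), whereas Smad1 to Smad5, which carry the signal, did not pass the test over the lines. In bulk RNA, fewer cells of a kind and less RNA per cell cannot be told apart.

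Compared with scramble cells, ptgs1-KO cells had 11 of the 39 genes called, 9 higher and 2 lower, against 9.26% of all genes tested (4.65% higher and 4.61% lower). The 9 were the ligands Tgfb1, Bmp6, and Inhba, the antagonists Grem1 and Fstl1, the inhibitory SMADs Smad6 and Smad7, and the targets Id1 and Id3. Fstl3 and Tgfbi were lower. Without ptgs1-KO replicate 3 the calls numbered 10. The median log2 difference of the 39 genes was 0.19, beside 0.0069 over all genes tested.

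In ptgs2-KO cells 12 of the 39 were called, 5 higher and 7 lower, against 11.1% of all genes tested (5.97% higher and 5.17% lower). Bmp6, Inhba, Bambi, Fstl3, and Skil were higher, whereas Bmp4, Acvr2b, Fst, Chrd, Ltbp3, Ltbp4, and Tgfbi were lower. In the ptges-KO line 17 of the 39 were called, 8 higher and 9 lower, against 26.3% of all genes tested (11.9% higher and 14.4% lower). The 8 higher genes were Bmp4, Bmp6, Inhba, Bambi, Skil, Id1, Id2, and Pmepa1, and the 9 lower genes were Tgfbr2, Tgfbr3, Acvr1b, Acvr2b, Fst, Grem1, Chrd, Ltbp3, and Ltbp4. These 3 comparisons share the scramble samples. Without scramble replicate 2 the 8 higher in ptges-KO cells became 4 and the 5 higher in ptgs2-KO cells became 3, and the 7 lower in ptgs2-KO cells became 4 without scramble replicate 1 or 3 or ptgs2-KO replicate 3.

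The methods of the study name a one-way model with the Tukey test, and the limma calls against scramble were set beside that test on untransformed values. With no adjustment over genes, an alternative chosen after seeing the data, it called 12 of the 39 genes in ptgs1-KO, 10 in ptgs2-KO, and 13 in ptges-KO cells, against 12.1%, 14%, and 22.8% of all genes. The limma calls that it did not make were Fstl3 in ptgs1-KO cells, Chrd and Ltbp3 in ptgs2-KO cells, and Bmp6, Tgfbr3, Acvr2b, and Grem1 in ptges-KO cells. With Benjamini-Hochberg adjustment over genes added to it, the calls numbered 5, 2, and 2, against 3.2%, 3.72%, and 10.2% of all genes. These were Bmp6, Grem1, Smad6, Id3, and Tgfbi in ptgs1-KO cells, Fst and Fstl3 in ptgs2-KO cells, and Inhba and Tgfbr2 in ptges-KO cells.

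Between the knockout lines, 18 of the 39 genes differed in ptgs2-KO against ptgs1-KO cells, 2 higher and 16 lower, against 23.6% of all genes tested (12.1% higher and 11.6% lower). In ptges-KO against ptgs1-KO cells 19 differed, 3 higher and 16 lower, against 30.2% of all genes (13.2% higher and 17% lower). The split of 3 higher and 16 lower became 8 and 16 with median-ratio scaling and 7 and 18 with quantile normalization, where 36.5% and 33.3% of all genes were called. For ptgs2-KO against ptgs1-KO cells the split of 2 and 16 became 3 and 19 with median-ratio scaling and 5 and 18 with quantile normalization, beside 29.3% and 28.7% of all genes. Without ptgs1-KO replicate 3 the calls numbered 17 in ptgs2-KO and 20 in ptges-KO cells against ptgs1-KO cells. Both comparisons share the ptgs1-KO samples, and the median differences of the 39 genes were -0.24 in each, beside -0.00480 and -0.0376 over all genes tested. Between ptges-KO and ptgs2-KO cells 9 genes differed, 5 higher and 4 lower in ptges-KO cells, against 16.6% of all genes (6.76% higher and 9.84% lower), and without ptges-KO replicate 1 the 4 became 7. With the Tukey test adjusted over genes, 2 of the 39 differed between ptges-KO and ptgs2-KO cells, against 5.66% of all genes. In ptgs2-KO and ptges-KO against ptgs1-KO cells it called 11 and 13, against 11.5% and 14.1%.

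**Figure D1:**
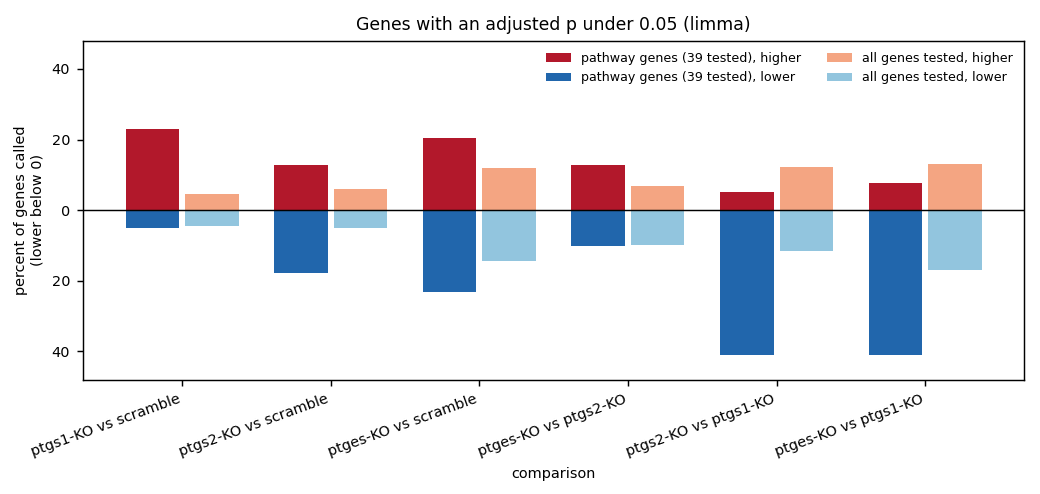
Percent of genes with a limma adjusted p under 0.05 in each of the 6 comparisons, higher genes above 0 and lower genes below it, for the 39 pathway genes tested (dark bars) and for all 11282 genes tested (pale bars). The longest dark bars are those for genes lower in ptgs2-KO or ptges-KO than in ptgs1-KO cells, with 16 of 39 genes in each.

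**Figure D2:**
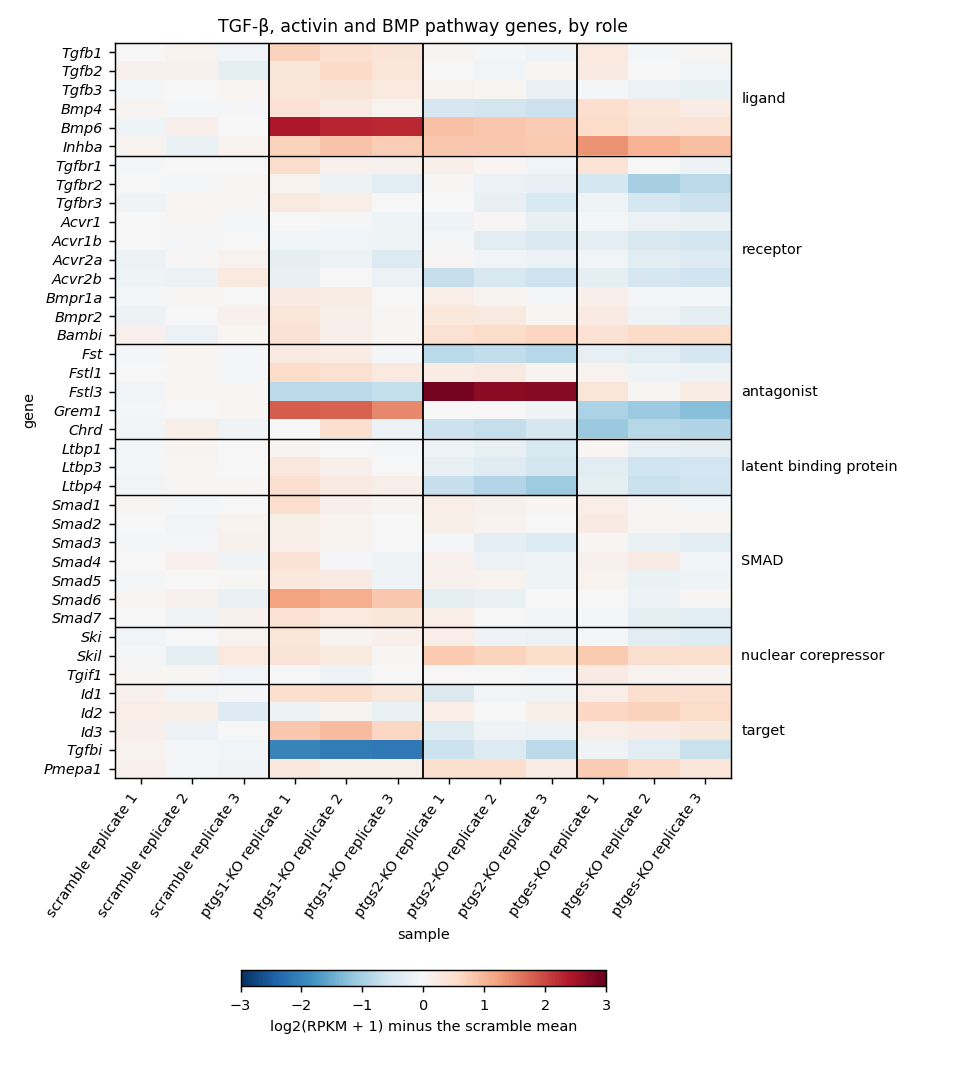
Level of the 39 pathway genes tested (rows, grouped by role) in each of the 12 samples (columns), as log2(RPKM + 1) minus the mean of the 3 scramble samples. Red is above and blue below scramble cells, and the deepest colors are Fstl3 in ptgs2-KO cells and Bmp6 in ptgs1-KO cells.

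Among the ligands, 6 of 9 were tested and 5 differed across the lines, beside 38.6% of all genes tested. Bmp6, a ligand of the BMP branch that is also known for its control of iron metabolism, was at 2.39, 3.16, and 2.7 RPKM in scramble cells, 19.1, 17.2, and 16.9 in ptgs1-KO cells, 5.84, 5.54, and 5.35 in ptgs2-KO cells, and 4.46, 3.92, and 3.99 in ptges-KO cells. All 9 knockout samples lay above the 3 scramble samples, and those of ptgs1-KO cells lay far above the rest. The log2 fold change against scramble cells was 2.32 (standard error 0.10, limma adjusted p = 1.2e-08) in ptgs1-KO, 0.81 (adjusted p = 2.7e-04) in ptgs2-KO, and 0.45 (adjusted p = 0.00653) in ptges-KO cells, where the means were 6.45, 2.03, and 1.5 times the scramble mean. In ptges-KO against ptgs2-KO cells the log2 difference was -0.36 (limma adjusted p = 0.0309), a call lost without ptgs2-KO replicate 1 or 2 or ptges-KO replicate 2 or 3 (0.08 to 0.117). Without the filter on low values it was lost too (limma adjusted p = 0.0516).

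Inhba codes for the subunit of activin A. Its level was 4.43, 3.5, and 4.56 RPKM in scramble cells, 7.29, 8.37, and 7.56 in ptgs1-KO cells, 8.01, 8.06, and 7.8 in ptgs2-KO cells, and 12, 9.65, and 8.64 in ptges-KO cells. Every knockout sample exceeded every scramble sample. Log2 fold changes were 0.76 in the ptgs1-KO, 0.80 in the ptgs2-KO, and 1.10 in the ptges-KO line (standard error 0.12 in each, limma adjusted p = 0.00137, 0.00114, and 3.8e-05). No difference between the 3 knockout lines passed the threshold, with adjusted p values from limma of 0.0548 to 0.866. Inhbb, the subunit of activin B, was listed at 0 in all samples.

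Of the 3 TGF-β genes, Tgfb1 had the highest level. It averaged 39.1 ± 2.62 RPKM (SD, n = 3) in scramble, 56.6 ± 6.61 in ptgs1-KO, 38.6 ± 2.58 in ptgs2-KO, and 42 ± 5.43 in ptges-KO cells. It was higher in ptgs1-KO cells alone among the 3 comparisons with scramble (log2 fold change 0.52, standard error 0.11, limma adjusted p = 0.00749), and it was also higher there than in both other knockout lines (adjusted p = 0.00245 and 0.0091, the latter 0.0509 without ptges-KO replicate 2). Tgfb3, at a mean of 7.56 RPKM in scramble and 9.85 in ptgs1-KO cells, missed the threshold against scramble with a limma adjusted p of 0.0509. Tgfb2 was near the filter on low values in all lines, with means of 1.05 to 1.79 RPKM, and was called only in ptgs2-KO against ptgs1-KO cells (limma adjusted p = 0.043), a call lost without any 1 sample of those lines or ptges-KO replicate 2 or 3 (0.0503 to 0.141). The call was also lost with a pseudocount of 0.1, with quantile normalization, and in a model of only the 2 groups compared (limma adjusted p = 0.0522 to 0.105).

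Bmp4, which shares its receptors with Bmp2, moved in opposite directions in 2 of the lines. Its mean was 9.28 ± 0.444 RPKM (SD, n = 3) in scramble, 11.4 ± 1.37 in ptgs1-KO, 5.92 ± 0.364 in ptgs2-KO, and 12.2 ± 1.28 in ptges-KO cells. It was lower in ptgs2-KO cells (log2 fold change -0.57, limma adjusted p = 0.00438) and higher in ptges-KO cells (0.36, limma adjusted p = 0.0246), the latter call being lost without scramble replicate 2 or 3 or ptges-KO replicate 1 or 2 (0.0723 to 0.0863). The direct difference between these lines was 0.93 (standard error 0.11, limma adjusted p = 5.1e-05). Bmp2 was below the filter and was singled out after its values were seen. It was at 1.22, 1.38, and 1.54 RPKM in scramble cells, 0.30, 0.39, and 0.30 in ptgs1-KO cells, 0, 0, and 0 in ptgs2-KO cells, and 0.50, 0.52, and 0.41 in ptges-KO cells, so that the 3 scramble samples lay above all others and the ptgs2-KO samples were listed at 0. Without the filter, on 18623 genes, limma gave adjusted p values of 6.0e-06, 5.0e-07, and 2.1e-05 for its 3 comparisons with scramble. Bmp7 was listed above 0 in a single sample, ptgs2-KO replicate 2, at 0.03 RPKM.

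**Figure D3:**
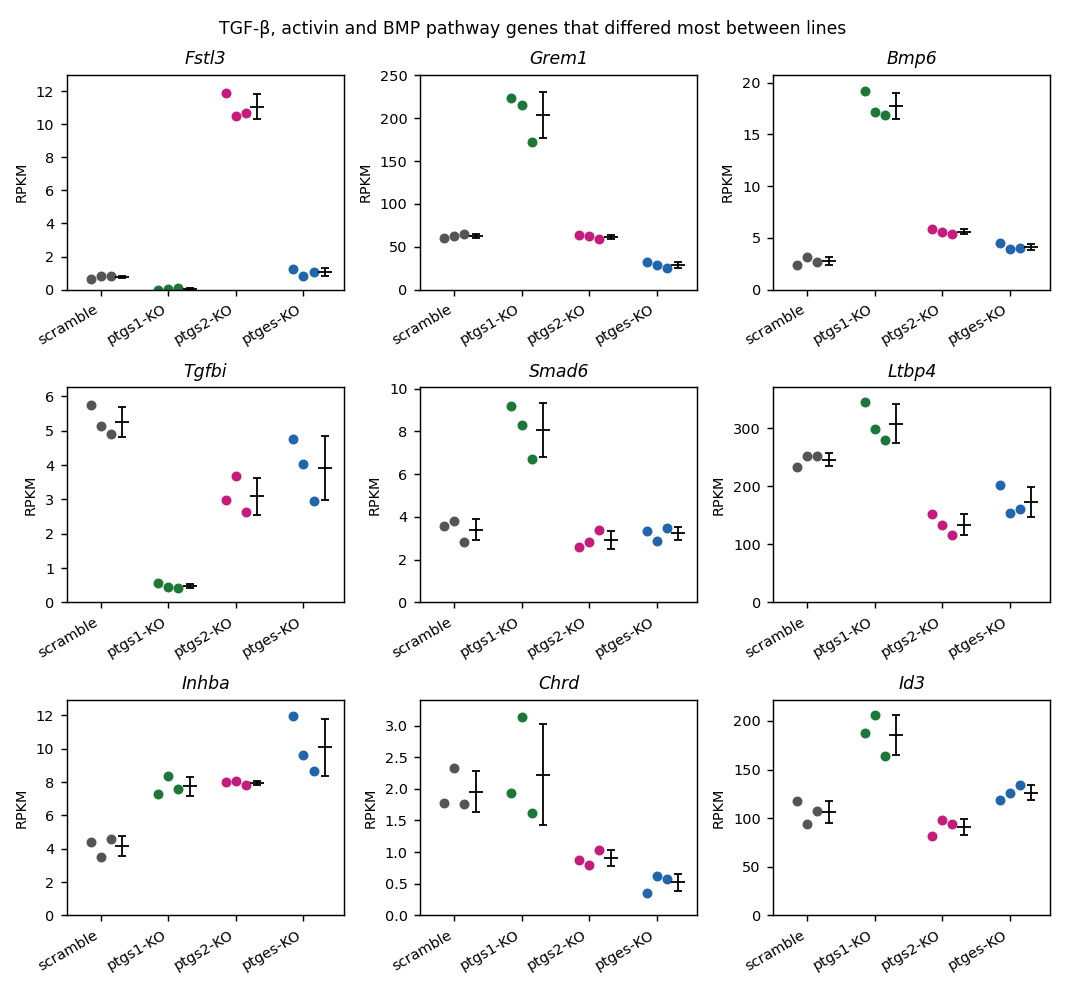
RPKM of the 9 pathway genes with the largest differences between lines, 1 panel per gene with a linear axis from 0. Points are the 3 samples of a line, and the bar beside them is their mean ± SD. The points of Fstl3 in ptgs2-KO cells and of Bmp6, Grem1, Smad6, and Id3 in ptgs1-KO cells lie above all other samples, and those of Tgfbi in ptgs1-KO cells lie below them.

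All 10 receptor genes were tested and 5 differed across the lines, or 50%, beside 38.6% of all genes tested. No receptor was called by limma in ptgs1-KO cells, where 9.26% of all genes were, and 0 of 10 is near that share. In ptges-KO cells Tgfbr2, the type II receptor that binds TGF-β, fell from 37 ± 1.35 RPKM (SD, n = 3) in scramble cells to 21.3 ± 3.69 RPKM, beside 33.9 ± 5.54 in ptgs1-KO and 34 ± 3.73 in ptgs2-KO cells. The log2 fold change was -0.78 (standard error 0.13, limma adjusted p = 9.6e-04), and the level was also lower than in ptgs2-KO cells (log2 difference -0.66, limma adjusted p = 0.00424) and in ptgs1-KO cells (-0.65, adjusted p = 0.00249). Neither of these differences between knockout lines was called by the Tukey test adjusted over genes (adjusted p = 0.153 and 0.0933). Tgfbr1, its type I partner, was at 11.7 to 14.4 RPKM in the 4 lines and did not pass the test (limma adjusted p = 0.406 over the lines).

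Tgfbr3, betaglycan, the co-receptor that presents TGF-β2 to the type II receptor, had the highest level of the receptors listed, at 154 ± 10.2 RPKM (SD, n = 3) in scramble cells. It was lower in ptges-KO cells, at 115 ± 21.8 RPKM (log2 fold change -0.43, limma adjusted p = 0.032), a call lost without replicate 2 or 3 of scramble or ptges-KO cells (0.0919 to 0.128). Without the filter on low values this call was lost too (limma adjusted p = 0.0676). Of the activin receptors, Acvr1b, a type I receptor, was lower in ptges-KO cells (-0.44, limma adjusted p = 0.00812), and Acvr2b, a type II receptor, was lower in ptgs2-KO cells (-0.60, adjusted p = 0.0122) and in ptges-KO cells (-0.46, adjusted p = 0.0244). Without scramble replicate 3 neither Acvr2b call held, and the one in ptges-KO cells was also lost without ptges-KO replicate 2 or 3 (limma adjusted p = 0.0515 to 0.109). The latter was lost as well without the filter, with quantile normalization, and in a model of only the 2 groups compared (limma adjusted p = 0.0521 to 0.0532). In ptges-KO against ptgs2-KO cells, limma called none of Tgfbr3, Acvr1b, and Acvr2b. The sole receptor gene that was higher than in scramble cells was Bambi, a pseudoreceptor without a kinase domain that dampens signaling. Its mean rose from 1.87 RPKM in scramble to 3.2 in ptgs2-KO cells (log2 fold change 0.55, limma adjusted p = 0.0153) and 3.07 in ptges-KO cells (0.51, adjusted p = 0.0114). Both calls were lost without scramble replicate 2, and that in ptgs2-KO cells also without ptgs2-KO replicate 3 (limma adjusted p = 0.0502 to 0.067). The BMP receptors Bmpr1a and Bmpr2 and the receptors Acvr1 and Acvr2a were not called in any comparison, with limma adjusted p values over the lines of 0.117 to 0.512.

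Among the secreted antagonists, 5 of 6 were tested and all 5 differed across the lines (38.6% of all genes did). They did not move together. Grem1 was higher in ptgs1-KO and lower in ptges-KO cells, Fstl3 was higher in ptgs2-KO and lower in ptgs1-KO cells, and Fst and Chrd were lower in ptgs2-KO and ptges-KO cells. For the 2 antagonists that differed most, the 250 bases before the start of the gene in RefSeq (GRCm38.p6) are printed so that the sequence beside these changes can be read. Grem1 lies on the minus strand, and its bases are chr2:113758649-113758898. Fstl3 lies on the plus strand, and its bases are chr10:79777024-79777273. Capitals mark CAGAC, the short SMAD binding element (GTCTG on the other strand), and GGCGCC, a GC element of BMP-responsive genes.
Grem1: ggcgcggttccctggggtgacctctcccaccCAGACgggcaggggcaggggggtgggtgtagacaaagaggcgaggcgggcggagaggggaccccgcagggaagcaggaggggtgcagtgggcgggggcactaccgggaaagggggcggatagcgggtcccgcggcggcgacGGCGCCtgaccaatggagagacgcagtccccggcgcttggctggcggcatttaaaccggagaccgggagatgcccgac
Fstl3: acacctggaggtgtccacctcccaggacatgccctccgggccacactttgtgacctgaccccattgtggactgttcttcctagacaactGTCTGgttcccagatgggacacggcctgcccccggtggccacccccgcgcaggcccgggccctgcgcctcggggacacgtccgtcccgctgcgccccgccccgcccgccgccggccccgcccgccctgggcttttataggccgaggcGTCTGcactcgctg
CAGAC occurred 1 time for Grem1 and 2 times for Fstl3, and GGCGCC occurred 1 time for Grem1 and 0 times for Fstl3. A match is a run of letters and not a measured binding site.

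Grem1 codes for gremlin 1, which binds BMP2, BMP4, and BMP7 outside the cell, and spans chr2:113746164-113758646 on GRCm38. Its level was 60.3, 63.1, and 65.3 RPKM in scramble cells, 223, 215, and 173 in ptgs1-KO cells, 63.6, 62, and 58.7 in ptgs2-KO cells, and 32, 28.8, and 25.6 in ptges-KO cells. The ptgs1-KO samples lay above and the ptges-KO samples below all others, and ptgs2-KO and scramble samples overlapped. Against scramble cells the log2 fold change was 1.67 in ptgs1-KO cells (standard error 0.10, limma adjusted p = 2.1e-07), a mean 3.24 times as high, and -1.11 in ptges-KO cells (standard error 0.10, limma adjusted p = 7.5e-06), a mean 0.458 times the scramble mean. In ptgs2-KO cells it was -0.03 (95% confidence interval -0.25 to 0.19). The fall in ptges-KO cells was not called by the Tukey test on untransformed values, either without adjustment over genes or with it (adjusted p = 0.257).

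Fstl3, a follistatin family protein that binds activins and myostatin, spans chr10:79777272-79782630. Its level was 0.66, 0.82, and 0.81 RPKM in scramble cells, 0, 0.03, and 0.08 in ptgs1-KO cells, 11.9, 10.5, and 10.7 in ptgs2-KO cells, and 1.27, 0.80, and 1.06 in ptges-KO cells. ptgs2-KO cells stood apart from every other sample, with a mean 14.5 times that of scramble cells, and the 3 ptgs1-KO samples were at or near 0. The log2 fold change was 2.77 in ptgs2-KO cells (standard error 0.12, limma adjusted p = 7.5e-09) and -0.77 in ptgs1-KO cells (limma adjusted p = 0.00112), and in ptges-KO cells 0.21 (adjusted p = 0.228). These values understate the change of so low a gene, since 1 is added to each RPKM value. Fstl3 passed the filter through its level in ptgs2-KO cells alone, and its fall in ptgs1-KO cells was not called by the Tukey test, either without adjustment over genes or with it (adjusted p = 0.823).

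Fst codes for follistatin, the main secreted inhibitor of activin. It averaged 185 ± 6.06 RPKM (SD, n = 3) in scramble, 205 ± 22.8 in ptgs1-KO, 106 ± 4.53 in ptgs2-KO, and 144 ± 13.6 in ptges-KO cells. It was lower in both of the latter, with log2 fold changes of -0.80 in ptgs2-KO cells (limma adjusted p = 1.0e-04) and of -0.36 in ptges-KO cells (adjusted p = 0.0113, or 0.0536 without ptges-KO replicate 3), and ptgs2-KO cells were lower than ptges-KO cells (limma adjusted p = 0.00555). Fstl1, a secreted glycoprotein with a follistatin-like domain, was higher in ptgs1-KO than in scramble cells (0.44, limma adjusted p = 0.00871). In ptgs2-KO cells all 3 samples also lay above scramble (0.19, adjusted p = 0.2), and the difference of ptgs2-KO from ptgs1-KO cells was -0.24 (limma adjusted p = 0.0707). Noggin (Nog), a BMP antagonist, was listed at 0 in all samples.

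Chrd codes for chordin, which sequesters BMPs. Its level was 1.78, 2.33, and 1.76 RPKM in scramble cells, 1.93, 3.13, and 1.61 in ptgs1-KO cells, 0.88, 0.79, and 1.04 in ptgs2-KO cells, and 0.36, 0.62, and 0.58 in ptges-KO cells. The samples of ptgs2-KO and ptges-KO cells all lay below those of scramble and ptgs1-KO cells. Its log2 fold change was -0.96 in ptges-KO cells (standard error 0.17, limma adjusted p = 0.00117) and -0.63 in ptgs2-KO cells (limma adjusted p = 0.0273). Both values understate the change of so low a gene, since 1 is added to each RPKM value. Among the alternatives they reached -1.75 and -1.03. The call in ptgs2-KO cells was lost when any 1 of the 3 scramble or 3 ptgs2-KO samples was left out (limma adjusted p = 0.0523 to 0.106) and with quantile normalization (limma adjusted p = 0.061).

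Latent TGF-β binding proteins hold newly made TGF-β in the matrix. Ltbp1, Ltbp3, and Ltbp4 were abundant, with means of at least 108 RPKM in every line, whereas Ltbp2 stayed under 0.1 RPKM in the mean of every line. Ltbp4, which binds latent TGF-β1 weakly and is known for its part in elastic fibers, was at 233, 253, and 253 RPKM in scramble cells, 345, 298, and 280.1 in ptgs1-KO cells, 153, 133, and 117 in ptgs2-KO cells, and 203, 154, and 161 in ptges-KO cells. All ptgs2-KO and ptges-KO samples lay below all scramble and ptgs1-KO samples. The log2 fold change was -0.88 in ptgs2-KO cells (standard error 0.12, limma adjusted p = 4.8e-04), -0.52 in ptges-KO cells (limma adjusted p = 0.00698), and 0.32 in ptgs1-KO cells (adjusted p = 0.13). Ltbp3 fell in the same lines, by 0.37 in ptgs2-KO (limma adjusted p = 0.0421) and by 0.50 in ptges-KO cells (adjusted p = 0.00472) on the log2 scale. The former call was lost without any 1 scramble sample, ptgs1-KO replicate 2, or replicate 2 or 3 of ptgs2-KO or ptges-KO cells (limma adjusted p = 0.051 to 0.148). It was also lost without the filter (limma adjusted p = 0.0726) and with eBayes run without trend (0.0592). Ltbp1, at 319 to 388 RPKM, did not pass the test over the lines (limma adjusted p = 0.0926).

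Of the 7 SMAD genes, the 2 inhibitory SMADs differed across the lines (38.6% of all genes did), and the 5 that carry the signal did not pass that test. Smad1 and Smad5 act in the BMP branch, Smad2 and Smad3 in the TGF-β and activin branch, and Smad4 is shared. Their limma adjusted p values over the lines were 0.0791 to 0.729, and their largest log2 difference between 2 lines was 0.35, for Smad3, which was lower in ptgs2-KO than in ptgs1-KO cells when these were compared directly (adjusted p = 0.0386, or 0.0518 to 0.149 without ptgs1-KO replicate 1 or 2, ptgs2-KO replicate 2 or 3, or ptges-KO replicate 2). That call of Smad3 was also lost without the filter, with eBayes run without trend, and in a model of only the 2 groups compared (limma adjusted p = 0.0518 to 0.0691). In scramble cells Smad3 averaged 76.4 ± 6.21 RPKM and Smad4 59.7 ± 4.9 RPKM (SD, n = 3).

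Smad6 is the inhibitory SMAD of the BMP branch and a gene that BMP signaling switches on. Its level was 3.57, 3.81, and 2.85 RPKM in scramble cells, 9.21, 8.28, and 6.69 in ptgs1-KO cells, 2.58, 2.85, and 3.4 in ptgs2-KO cells, and 3.33, 2.88, and 3.48 in ptges-KO cells. The 3 ptgs1-KO samples lay above all 9 others, which overlapped one another. Against scramble the ptgs1-KO log2 fold change was 1.04 (standard error 0.14, limma adjusted p = 2.7e-04), with -0.16 in ptgs2-KO and -0.06 in ptges-KO cells (adjusted p = 0.484 and 0.799). Smad7, which inhibits both branches, was higher in ptgs1-KO cells by 0.36, close to the threshold (limma adjusted p = 0.0496), a call lost without any 1 scramble or ptgs1-KO sample or replicate 2 or 3 of the other 2 lines (0.052 to 0.164). The call was also lost without the filter, with a filter at 10 RPKM, and in a model of only the 2 groups compared (limma adjusted p = 0.0611 to 0.0739). The 250 bases before Smad6, on the minus strand at chr9:64022060-64022309 of GRCm38.p6, are shown because Smad6 and Grem1 rose in the same line, and they hold none of the motifs searched.
Smad6: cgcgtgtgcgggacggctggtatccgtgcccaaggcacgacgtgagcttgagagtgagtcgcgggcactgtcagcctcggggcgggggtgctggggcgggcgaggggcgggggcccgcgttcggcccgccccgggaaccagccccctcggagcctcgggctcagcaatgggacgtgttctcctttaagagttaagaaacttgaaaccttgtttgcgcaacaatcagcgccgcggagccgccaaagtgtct

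Among the nuclear corepressors, Skil, which codes for SnoN, was higher in ptgs2-KO and ptges-KO cells. Its mean was 9.84 ± 2.19 RPKM (SD, n = 3) in scramble, 11.7 ± 1.53 in ptgs1-KO, 15.9 ± 1.54 in ptgs2-KO, and 15.1 ± 2.08 in ptges-KO cells. Both rises passed the test, with log2 fold changes of 0.66 (limma adjusted p = 0.0122) and 0.58 (adjusted p = 0.012), but neither did without scramble replicate 2 (0.057 and 0.0559). Ski differed over the lines (limma adjusted p = 0.0345) and was lower in ptges-KO than in ptgs1-KO cells (-0.47, adjusted p = 0.00861), and Tgif1 did not pass the test (0.175).

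Of the 6 target genes, 5 were tested and all 5 differed across the lines, against the same 38.6% of all genes. ID proteins inhibit basic helix-loop-helix factors and are classical targets of BMP signaling. Id3 was at 117, 94.4, and 107 RPKM in scramble cells, 187, 206, and 164 in ptgs1-KO cells, 81.8, 97.8, and 94 in ptgs2-KO cells, and 119, 126, and 134 in ptges-KO cells. The ptgs1-KO samples lay above all others, the ptges-KO samples lay just above those of scramble cells, and the ptgs2-KO samples overlapped the scramble samples. Its log2 fold change was 0.80 in ptgs1-KO cells (standard error 0.10, limma adjusted p = 2.7e-04), -0.22 in ptgs2-KO cells (adjusted p = 0.199), and 0.25 in ptges-KO cells (adjusted p = 0.095, or 0.0444 with median-ratio scaling).

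Id1 was higher in both ptgs1-KO and ptges-KO cells, with means of 69.8 RPKM in scramble, 95.9 in ptgs1-KO, 60.3 in ptgs2-KO, and 91.7 in ptges-KO cells (log2 fold change 0.45 and 0.39, limma adjusted p = 0.0193 and 0.02). Both calls were lost without scramble replicate 2 or 3, the first also without ptgs1-KO replicate 1 or 2 and the second without ptges-KO replicate 2 or 3 (limma adjusted p = 0.0674 to 0.0814). In ptgs2-KO cells it was below both of these lines (log2 difference from ptgs1-KO cells -0.67, limma adjusted p = 6.6e-04), and ptges-KO cells exceeded ptgs2-KO cells by 0.60 (adjusted p = 0.00226). In ptges-KO cells Id2 exceeded its level in scramble (0.62, limma adjusted p = 0.00796) and ptgs1-KO cells (0.71, adjusted p = 0.00261). Its difference from ptgs2-KO cells (0.49, limma adjusted p = 0.0362) was not called without any 1 ptgs2-KO or ptges-KO sample (0.0582 to 0.12) or without the filter (0.0767). Id4 was below the filter, at means of 0.527 to 1.35 RPKM.

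Tgfbi and Pmepa1 are targets of the TGF-β branch. Tgfbi, which codes for a matrix protein that binds integrins and collagens, was at 5.75, 5.13, and 4.89 RPKM in scramble cells, 0.56, 0.46, and 0.42 in ptgs1-KO cells, 2.98, 3.67, and 2.62 in ptgs2-KO cells, and 4.77, 4.02, and 2.94 in ptges-KO cells. The 3 ptgs1-KO samples lay below all others, at 9.13% of the scramble mean. Its log2 fold change was -2.08 in ptgs1-KO cells (standard error 0.15, limma adjusted p = 7.4e-07), the line in which Tgfb1 itself was higher. In ptgs2-KO cells it was -0.62 (limma adjusted p = 0.0165), a call lost without scramble replicate 1 (0.0708), ptgs2-KO replicate 1 (0.0534), or ptgs2-KO replicate 3 (0.0713), and in ptges-KO cells -0.36 (adjusted p = 0.0847). Pmepa1, a membrane protein that restrains SMAD signaling, rose from 0.737 RPKM in scramble to 1.58 RPKM in ptges-KO cells (0.56, limma adjusted p = 0.00969), levels near the filter. It was not called in the other knockout lines against scramble cells, nor in any comparison between knockout lines.

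**Figure D4:**
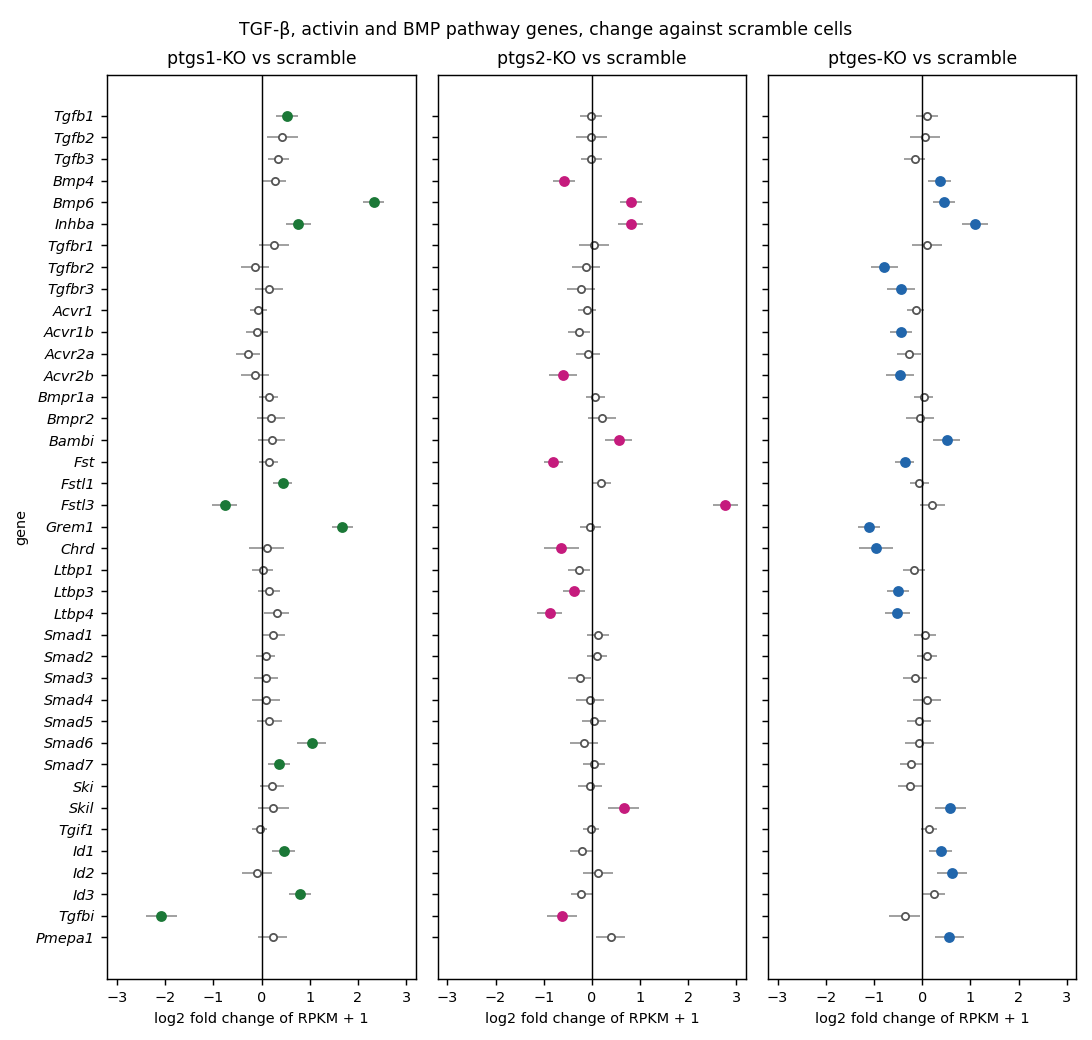
Log2 fold change of RPKM + 1 against scramble cells for the 39 pathway genes tested, 1 panel per knockout line. Lines are 95% confidence intervals, filled points have a limma adjusted p under 0.05, and open points do not. Bmp6 and Inhba are filled to the right of 0 in all 3 panels, whereas the receptor SMADs are open throughout.

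The rest of the pathway was read from a list of 106 further genes, of which 105 were in the data and 46 were tested. Compared with scramble cells, 12 were called in ptgs1-KO cells (8 higher and 4 lower, against 9.26% of all genes tested), 13 in ptgs2-KO cells (6 and 7, against 11.1%), and 15 in ptges-KO cells (4 and 11, against 26.3%). Without ptgs2-KO replicate 2 the 13 became 8, and without ptges-KO replicate 2 the 15 became 9. Of 24 other ligands, 23 were below the filter. The changes given below for Fbn1 in ptgs2-KO, Msx1 in ptges-KO, and Ctgf in ptgs1-KO cells were called by the Tukey test on untransformed values, but not once it was adjusted over genes (adjusted p = 0.0677 to 0.105).

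Eng, endoglin, a co-receptor that binds BMP9, BMP10, and TGF-β complexes, had the largest change. Its level was 53.3, 50.8, and 54.5 RPKM in scramble cells, 53.5, 52, and 44.9 in ptgs1-KO cells, 0.55, 1.08, and 0.89 in ptgs2-KO cells, and 34.1, 25.8, and 22.4 in ptges-KO cells. ptgs2-KO samples lay far below all others, ptges-KO samples lay between, and scramble and ptgs1-KO samples overlapped. The log2 fold change was -4.88 in ptgs2-KO cells (standard error 0.14, limma adjusted p = 4.0e-10), -0.94 in ptges-KO cells (limma adjusted p = 4.8e-04), and -0.08 in ptgs1-KO cells (adjusted p = 0.795). Eng is known from endothelium, and the 5 endothelial markers summed to at most 0.28 RPKM in any sample. The source of the Eng transcripts was not tested.

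Fbn1, fibrillin 1, the microfibril protein to which latent TGF-β complexes attach, was at 17.1, 18.7, and 18.3 RPKM in scramble cells, 23, 21.6, and 20.8 in ptgs1-KO cells, 47.7, 41.3, and 33.1 in ptgs2-KO cells, and 53, 39.7, and 38.2 in ptges-KO cells. It was higher in all ptgs2-KO and ptges-KO samples (log2 fold change 1.12 and 1.21, limma adjusted p = 1.7e-04 and 3.8e-05), the lines in which Ltbp3 and Ltbp4 were lower.

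Of 23 TGF-β targets outside the 45 genes, 14 were tested, and 5 were called in ptgs1-KO (4 higher and 1 lower), 4 in ptgs2-KO (3 and 1), and 3 in ptges-KO cells (1 and 2), against 9.26%, 11.1%, and 26.3% of all genes. Fn1, fibronectin, was at 41, 45.5, and 45.1 RPKM in scramble cells, 104, 100.5, and 92.3 in ptgs1-KO cells, 43, 34.1, and 31.6 in ptgs2-KO cells, and 18.8, 15.1, and 14.6 in ptges-KO cells. All ptgs1-KO samples lay above and all ptges-KO samples below the others, with log2 fold changes of 1.16 (limma adjusted p = 2.6e-05) and -1.39 (adjusted p = 2.9e-06). Ctgf, connective tissue growth factor, was at 39.5, 36.8, and 38.6 RPKM in scramble cells, 53, 55.4, and 45.3 in ptgs1-KO cells, 37.6, 37.9, and 32.4 in ptgs2-KO cells, and 34.2, 32.6, and 31.4 in ptges-KO cells. It was called in ptgs1-KO cells (0.40, limma adjusted p = 0.0121), but not without scramble replicate 2 (0.0551) or ptgs1-KO replicate 2 (0.0561).

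Of 12 BMP targets of that list, 7 were tested, and 3 were called in ptgs1-KO (1 higher and 2 lower), 3 in ptgs2-KO (1 and 2), and 4 in ptges-KO cells (1 and 3), beside the same shares of all genes. Among them, Atoh8, a basic helix-loop-helix factor, was at 1.61, 1.97, and 1.55 RPKM in scramble cells, 7.37, 7.29, and 6.45 in ptgs1-KO cells, 2.46, 2.13, and 2.03 in ptgs2-KO cells, and 1.74, 2.39, and 2.97 in ptges-KO cells. It was higher in the 3 ptgs1-KO samples than in all others (log2 fold change 1.57, standard error 0.14, limma adjusted p = 6.2e-06), as Smad6 and Id3 were. Msx1, a homeobox factor of the same branch, was at 7.34, 5.56, and 6.37 RPKM in scramble cells, 2.08, 3.57, and 2.54 in ptgs1-KO cells, 2.34, 2.53, and 2.32 in ptgs2-KO cells, and 4.03, 4.29, and 4.32 in ptges-KO cells. It was lower in all 3 knockout lines, with log2 fold changes of -1.01, -1.12, and -0.50 (limma adjusted p = 4.7e-04, 2.3e-04, and 0.0191), although the call in ptges-KO cells was lost without scramble replicate 1 or 3 or ptges-KO replicate 1 or 2 (limma adjusted p = 0.0505 to 0.0804). Dlx3, another homeobox factor, was at 0.50, 0.26, and 0.85 RPKM in scramble cells, 0.55, 0.57, and 0.53 in ptgs1-KO cells, 2.42, 2.42, and 2.45 in ptgs2-KO cells, and 0.72, 0.50, and 0.33 in ptges-KO cells, and was higher in ptgs2-KO than in scramble cells (1.18, limma adjusted p = 2.7e-04). Dlx3 passed the filter through its level in ptgs2-KO cells alone.

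**Figure D5:**
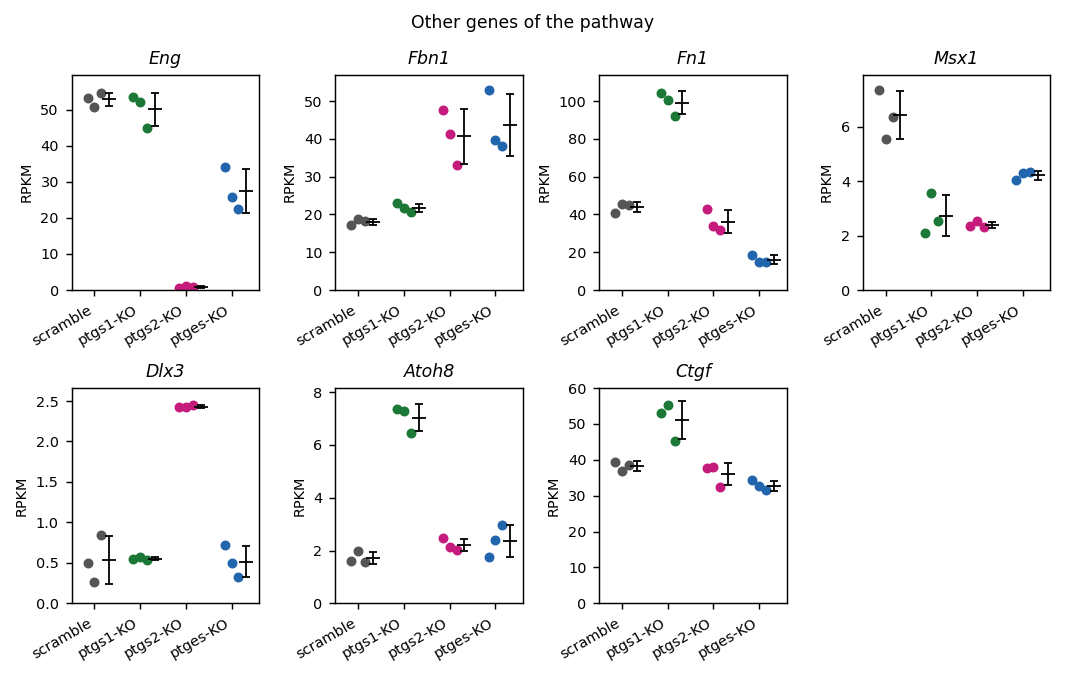
RPKM of 7 further genes of the pathway in the 12 samples, 1 panel per gene with a linear axis from 0. Points are the 3 samples of a line, and the bar beside them is their mean ± SD. Eng in ptgs2-KO cells lies near 0, at 0.55 to 1.08 RPKM, and Fn1 runs from 14.6 RPKM in a ptges-KO sample to 104 RPKM in a ptgs1-KO sample.

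Promoters of 32 of the 45 genes were matched in RefSeq, as 42 promoters, and the 250 bases before each start were searched on both strands for 5 motifs. The starts are those of RefSeq, and some windows reach into exons annotated by GENCODE. Of the windows with GGCGCC, that of Bmpr2 lay in exons over all 250 bases, and those of Id2 and Bmpr1a over 161 and 141. Of 126 promoters of listed genes checked, 88 met the start of a GENCODE transcript. CAGAC was present in 42.9% of the 42, beside 42.2% of all 32851 promoters of the same length. GTCTAGAC, the SMAD palindrome, was in 0% and 0.167%. GGCGCC was in 28.6%, or 12 of 42, beside 9.59%. A pair of these are overlapping windows of Ltbp4 that hold the same site, so that 11 of the 32 genes had it, or 34.4%, beside 10.8% of all genes, and the part of base composition in this was not tested. The cAMP response element TGACGTCA was in 2.38% and 1.55%, and TGACG, which overlaps it, in 14.3% and 17.8%. These shares describe the letters in the windows and not binding of a factor.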

How the data were processed

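RNA-seq of 12 samples of murine Braf V600E melanoma cells was analyzed, assigned by their labels to scramble cells and the 3 knockout lines (3 each). Paired-end reads of 101 bp were processed by the authors on mm10, and the values were deposited as RPKM to 2 decimals. The methods of the study call them normalized counts, and the aligner, counter, and annotation are not given in the sources used here. The labels name both an unstranded and a directional library kit, so that reads of overlapping antisense genes may not be separated. Of 30705 gene names, 12082 were at 0 in all samples. Summed values were 878504 to 903881 per sample. Read counts were not recovered, and the depth of 13.5 to 17.0 M reads (median 15.7 M) was estimated from the steps between low values of short genes. It was least certain in ptgs1-KO replicate 1. Interval estimates for counting error were therefore not made.

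Limma 3.58.1 in R 4.3.3 (lmFit, then eBayes fitted with trend) was run on log2(RPKM + 1), that is a pseudocount of 1, of genes averaging 1 RPKM or more. All 12 samples entered 1 model without a replicate block, and 6 contrasts and the moderated F over the lines were tested two-sided, with Benjamini-Hochberg adjustment over 11282 genes. Fold changes on this scale understate those of low genes. Plots were made with matplotlib 3.10.9 (Python 3.11.15). Gene positions are from GENCODE M21 (GRCm38) and promoters from RefSeq (GRCm38.p6). The steps were tested on simulated data.

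Values in every sample were given for genes with an adjusted p under 0.05 over the lines and a difference between 2 line means of at least 1 on the log2 scale, for targeted genes, for further pathway genes with such a change against scramble cells, and for Ctgf whatever its values. A further gene that the rule named is not reported here. Bmp2 was named outside this rule after its values were seen. The 45 genes, the further list, and the marker lists (melanocyte, fibroblast, epithelial, endothelial, immune) were chosen with earlier results of these data known.

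Alternatives were a pseudocount of 0.1, no filter, a filter at a mean of 10 RPKM, median-ratio scaling, quantile normalization, the replicate block, a model of only the 2 groups compared, eBayes without trend, the one-way model with Tukey test named by the study, on untransformed values with Benjamini-Hochberg adjustment over genes (which its methods do not state), and each replicate left out in turn. The Tukey test without adjustment over genes was added after the data were seen. No measured column was left out.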

Additional observations from a re-analysis of the deposited data

Results flagged for a closer look

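Some genes moved in opposite directions in 2 knockout lines relative to the same scramble samples, and the difference between those lines passed the limma test over all genes. Bmp4 fell in ptgs2-KO cells (-0.57) and rose in ptges-KO cells (0.36), and the log2 difference of ptges-KO from ptgs2-KO cells was 0.93 (standard error 0.11, limma adjusted p = 5.1e-05). The rise of Bmp4 in ptges-KO cells was not called without scramble replicate 2 or 3 or ptges-KO replicate 1 or 2 (limma adjusted p = 0.0723 to 0.0863). Fstl3, which passed the filter on low values through its level in ptgs2-KO cells alone, fell in ptgs1-KO (-0.77) and rose in ptgs2-KO cells (2.77), a difference of 3.54 between ptgs2-KO and ptgs1-KO cells (standard error 0.12, limma adjusted p = 5.0e-10). Grem1 rose in ptgs1-KO (1.67) and fell in ptges-KO cells (-1.11), a difference of -2.78 in ptges-KO against ptgs1-KO cells (standard error 0.10, limma adjusted p = 6.4e-10).

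Among the further pathway genes, Fn1 rose in ptgs1-KO (1.16) and fell in ptges-KO cells (-1.39), a difference of -2.55 in ptges-KO against ptgs1-KO cells (standard error 0.12, limma adjusted p = 4.6e-09). In each of these 4 genes every sample of 1 line lay above and every sample of the other below the scramble samples.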

How the results depend on the processing

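Over the 39 genes and 6 comparisons, the 86 called log2 differences had 1851 values under 22 alternatives, and none of these changed sign. The call was kept in 1671 and lost in 180, of which 94 had a replicate left out, 51 used the Tukey test adjusted over genes, 12 the Tukey test without that adjustment, and 23 the other alternatives. None of the 33 called changes of targeted and fully described genes against scramble cells changed sign either. With the filter at a mean of 10 RPKM, which tests fewer genes, 14 pathway genes were called over the lines (26 at a mean of 1), with 5 in ptgs1-KO, 4 in ptgs2-KO, and 9 in ptges-KO against scramble cells, 5 in ptges-KO against ptgs2-KO, 9 in ptgs2-KO against ptgs1-KO, and 12 in ptges-KO against ptgs1-KO cells. Only 26 of the 39 were then tested, and the shares of all 7957 genes called were 39.4% over the lines, 7.31%, 10.9%, and 27.3% against scramble cells, and 16%, 24.3%, and 31.2% between knockout lines. The further pathway genes then numbered 7, 8, and 9. With the Tukey test adjusted over genes, the pathway genes called were 5, 2, and 2 of 39 against scramble cells (3.2%, 3.72%, and 10.2% of all genes), 2 in ptges-KO against ptgs2-KO (5.66%), and 11 in ptgs2-KO against ptgs1-KO cells (11.5%), and the further genes 8 in ptgs2-KO and 8 in ptges-KO cells. The cause was not tested.

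With each replicate left out in turn, the calls ranged from 22 to 28 over the lines, 9 to 12 in ptgs1-KO, 8 to 12 in ptgs2-KO, and 12 to 19 in ptges-KO against scramble cells, 7 to 11 in ptges-KO against ptgs2-KO, 13 to 22 in ptgs2-KO against ptgs1-KO, and 17 to 24 in ptges-KO against ptgs1-KO cells. The shares of all genes called ranged, in the same order, from 29.4% to 40.8%, 5.67% to 10.3%, 6.4% to 13.8%, 17.2% to 29%, 9.8% to 19.8%, 17.7% to 25.1%, and 20.4% to 31.6%. For the further genes they ranged from 10 to 13, 8 to 13, and 9 to 18. Depth limits what can be read of genes near or under 1 RPKM.

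Deviations from the line means of same-numbered samples correlated with a mean r of 0.0123 across genes (18 pairs, -0.341 to 0.566, 5 over 0.1). For different numbers the mean was -0.00456. Positive and negative pairs cancel in such a mean, so it cannot show whether replicate numbers mark shared handling. With the replicate block the calls were 26 over the lines, 11, 12, and 17 against scramble cells, and 11, 21, and 19 in ptges-KO against ptgs2-KO, ptgs2-KO against ptgs1-KO, and ptges-KO against ptgs1-KO cells, beside 40.3%, 9.79%, 12.1%, 27.5%, 17.8%, 24.6%, and 31.6% of all genes under the block. The further genes numbered 14, 12, and 17.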
